A study of Mus musculus with 15 samples.

Results

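The regions described here are the ATAC-seq peaks of mouse chromosome 15, used as a profile of chromosome dosage, that is, of how many counts each stretch of the chromosome gave in each tumour cell clone. A peak was included when its mean raw count over the libraries was 20 or more and when it lay outside 61 to 64 Mb, which left 1652 of the 2951 chromosome 15 peaks and of the 67945 peaks in the whole table. The highest mean count below this minimum was 19.9, and the lowest among the members was 20. ATAC-seq inserts sequencing adapters into open DNA with a transposase, and counts were given per peak. The libraries came from pancreatic tumour cells that were implanted under the skin of C57BL/6 mice and sorted from the tumours 3 weeks later, with 50000 cells sorted for a library. There were 6 T cell high clones, which form tumours rich in T cells (6620c1, 7160c2, 2838c3, 6421c2, 6555c3 and 6499c4) and 7 T cell low clones (6694c2, 6556c3, 6422c1, 2699c4, 6499c3 and the pair 6419c1 and 6419c5). No treatment was given, and the labels name no driver allele and no age. Of 15 labelled samples, 2 of an intermediate phenotype were not analysed here. The labels list 1 library per clone, so a clone's value has no replicate error, and the spread between clones is the only biological spread available.

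Tumour cells often gain or lose whole chromosomes or chromosome arms, and each extra copy of a segment adds template for the transposase along its whole length. A change of copy number can therefore move neighbouring peaks together, and regulation can act on single promoters and enhancers or on whole domains of neighbouring elements. Mouse chromosome 15 has its centromere at one end, carries Myc, Ptk2, Trio and a keratin gene cluster, and is a chromosome whose gain is well known from mouse T cell lymphomas. More copies of the DNA and more open chromatin per copy cannot be told apart in these counts, nor can a shift in some of the sorted cells and a smaller one in all of them.

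The 250 bases before the start of 4 genes are shown because their gene-end peaks, which lie within 1 kb of an end of a protein-coding gene, had the highest mean counts on each side of 70 Mb, a boundary used in the results below, among the listed genes with an entry in the promoter table; they serve as landmarks for a promoter that most libraries read deeply. The sequences are from RefSeq (build GRCm38.p6), 5′ to 3′ on the strand of the gene, with capitals marking GGGCGG or its reverse complement CCGCCC, the core of the GC box bound by Sp1-family factors. Trio (chr15:28025849-28026098, minus strand) and Zfp622 (chr15:25984116-25984365, plus strand) lie below 70 Mb, and Sp1 (chr15:102406066-102406315, plus strand) and Slc38a2 (chr15:96699729-96699978, minus strand) lie above it.
Trio: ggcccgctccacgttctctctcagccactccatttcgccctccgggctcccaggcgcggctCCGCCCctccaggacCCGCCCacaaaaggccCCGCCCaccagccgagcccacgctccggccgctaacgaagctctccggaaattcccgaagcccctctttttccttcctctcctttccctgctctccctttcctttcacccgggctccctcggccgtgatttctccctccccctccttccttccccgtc
Zfp622: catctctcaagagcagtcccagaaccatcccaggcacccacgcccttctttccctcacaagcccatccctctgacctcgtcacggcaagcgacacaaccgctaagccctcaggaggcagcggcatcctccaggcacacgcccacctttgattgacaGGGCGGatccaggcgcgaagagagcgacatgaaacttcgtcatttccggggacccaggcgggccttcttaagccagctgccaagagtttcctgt
Sp1: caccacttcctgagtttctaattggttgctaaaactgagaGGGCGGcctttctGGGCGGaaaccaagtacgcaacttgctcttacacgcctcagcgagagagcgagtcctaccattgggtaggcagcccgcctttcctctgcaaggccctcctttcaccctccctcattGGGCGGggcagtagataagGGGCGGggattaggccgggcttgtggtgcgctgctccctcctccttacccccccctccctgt
Slc38a2: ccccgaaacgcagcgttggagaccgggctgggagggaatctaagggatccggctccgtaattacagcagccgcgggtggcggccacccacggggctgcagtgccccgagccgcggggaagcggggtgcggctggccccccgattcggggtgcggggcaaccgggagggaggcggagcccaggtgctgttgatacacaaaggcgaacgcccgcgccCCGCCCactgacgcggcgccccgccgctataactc
The motif was found 3 times in Trio, 1 time in Zfp622, 4 times in Sp1 and 1 time in Slc38a2, counting both strands. TATAAA was also searched on both strands and was found 0 times in each sequence. The GGGCGG motif was present in 32.7% of all 32851 promoters of this table and in 34.4% of the 936 on chromosome 15. A match to it does not set these genes apart. Of the 62 listed genes with a member peak, 37 had an entry in the promoter table.

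The 1652 peaks ran from 227 to 2660 bp in length (median 933 bp), and 27.4% were gene-end peaks, against 27.8% on the other autosomes. The gene-end share differed along the chromosome. It was 17.5% of the 790 peaks below 70 Mb and 36.4% of the 862 peaks at or above 70 Mb. Libraries held 968296 to 7369228 counts in peaks, and no 2 libraries were duplicates, with 0.748% equal counts in the closest pair. All 8 tumour epithelial markers had a gene-end peak, with a summed level of 138 to 292 CPM (counts scaled to a common library size, median 254) in T cell high clones and 147 to 249 CPM (median 198) in T cell low clones. Of 9 leukocyte markers, 3 had one (Ptprc, Cd53 and Coro1a), with a summed level of 17.4 to 55.7 CPM (median 44.1) in T cell high clones and 38.9 to 72.5 CPM (median 47.0) in T cell low clones, and their part in the results was not tested. Of 7 fibroblast and endothelial markers only Col1a1 had a gene-end peak, at 19.9 to 34.4 CPM in T cell high clones and 16.8 to 37.9 CPM in T cell low clones.

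The value used throughout is the log2 ratio of a peak's CPM in a clone to its median in the other 12 libraries, summarised by the median over peaks. Over the whole chromosome the median ratio ranged from -0.14 to 0.00 in T cell high clones (median -0.06) and from -0.13 to 0.27 in T cell low clones (median 0.10). The T cell high clones lay close together, with 2838c3 at 0.00, 6499c4 at -0.04, 6421c2 at -0.05, 6555c3 at -0.06, 6620c1 at -0.11 and 7160c2 at -0.14. Among T cell low clones 6419c1 stood highest at 0.27, followed by 6422c1 at 0.16, 6556c3 and 6499c3 at 0.10 and 6694c2 at 0.01, and 2699c4 at -0.11 and 6419c5 at -0.13 were lowest. The other autosomes together stood at -0.11 in both 7160c2 and 6556c3, the libraries with the fewest counts. Centred on the other autosomes, 7160c2 was at -0.035, the highest of the T cell high clones. On that scale 6556c3 was at 0.21, behind only 6419c1 at 0.24. The value of 2699c4 turned with the peak class, at 0.13 over gene-end peaks and -0.24 over the other peaks. Its peak classes also differed on the other autosomes together, at 0.18 over gene-end peaks and -0.08 over the other peaks. The T cell high mean was -0.07 ± 0.05 (SD, n = 6) and the T cell low mean 0.06 ± 0.15 (SD, n = 7). They differed by -0.13, and the groups overlapped. Chromosome 15 peaks took 3.35% ± 0.08 of a library's counts in T cell high clones and 3.69% ± 0.33 in T cell low clones.

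Chromosome 15 as a whole varied little between clones. Its median had an SD of 0.127 over the 13 clones and a range of 0.417, the smallest of the 19 autosomes in both. The SD of chromosome 18 was nearly the same, 0.128, and ranks under other settings are not given here. Chromosome 16 had the largest SD, 0.267. The size of the difference between the groups (T cell high minus T cell low) ranked 9th of the 19. In 6419c1, however, chromosome 15 had the largest median of any autosome in that clone by size (1st of 19). The lead was slight, at 0.273 beside 0.271 for chromosome 16 and 0.261 for chromosome 7. In 6422c1 chromosome 15 ranked 5th. The plot of autosome medians shows both features.

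**Figure D1:**
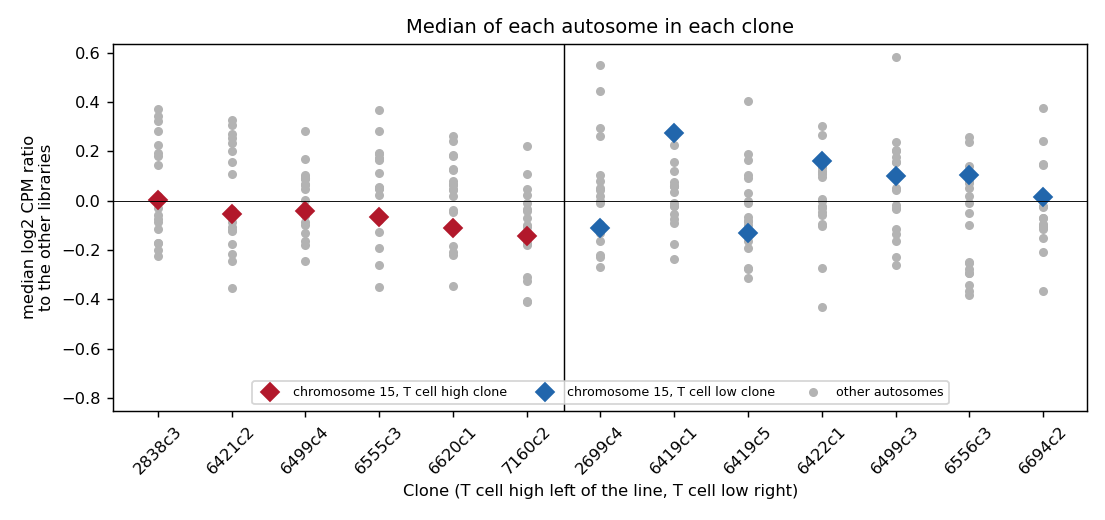
Median log2 CPM ratio to the other libraries (vertical axis) of each autosome in each clone, with T cell high clones left of the line and T cell low clones right of it; diamonds are chromosome 15 and grey points are the other 18 autosomes. Chromosome 15 lies between -0.14 and 0.00 in the T cell high clones and between -0.13 and 0.27 in the T cell low clones. Only in 6419c1 is it the most extreme autosome, at 0.273 beside 0.271 for chromosome 16.

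The profile along the chromosome was taken in 5 Mb windows. Of 21 windows, 20 held at least 5 peaks (7 to 204, median 70.5), the 45 to 50 Mb window with 4 peaks was not used, and a clone's window rested on 67 to 34666 counts (median 3995). A window was counted as shifted in a clone when its median ratio was 0.3 or more from 0 on the log2 scale. Of 260 clone windows 61 were shifted (23.5%), 28 lower and 33 higher, beside a background of 23.6% of 6123 clone windows on the other autosomes. Taken over all clones, chromosome 15 was therefore shifted as often as the rest of the genome.

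That total was uneven in 2 ways. The sparse stretch from 15 to 25 Mb, which holds 19 peaks, with that of Cdh9, a cadherin gene, as its only member from the gene lists, gave 21 shifted clone windows of 26, while the other 18 windows gave 40 of 234. With 20 or more peaks required in each window on every autosome, a minimum chosen after the data were seen, 34 of 221 clone windows were shifted (15.4%), beside a background of 22.1% on the other autosomes. The spread of windows within a clone moved in the same way. Its median SD over clones was 0.285, the second highest of the autosomes with a minimum of 5 peaks, and 0.125, the 14th of 19, with a minimum of 20 peaks. Among clones the shifted windows concentrated in 3 T cell low clones. 2699c4 had 12 of 20 windows shifted, beside 27.4% of its windows on other autosomes. 6499c3 had 10 of 20 beside 37.6% (3 of 20 lower beside 21.9%), and 6419c1 had 8 of 20 beside 14.2% (0 of 20 lower beside 4.25%). The other 10 clones had 1 to 5 shifted windows each.

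**Figure D2:**
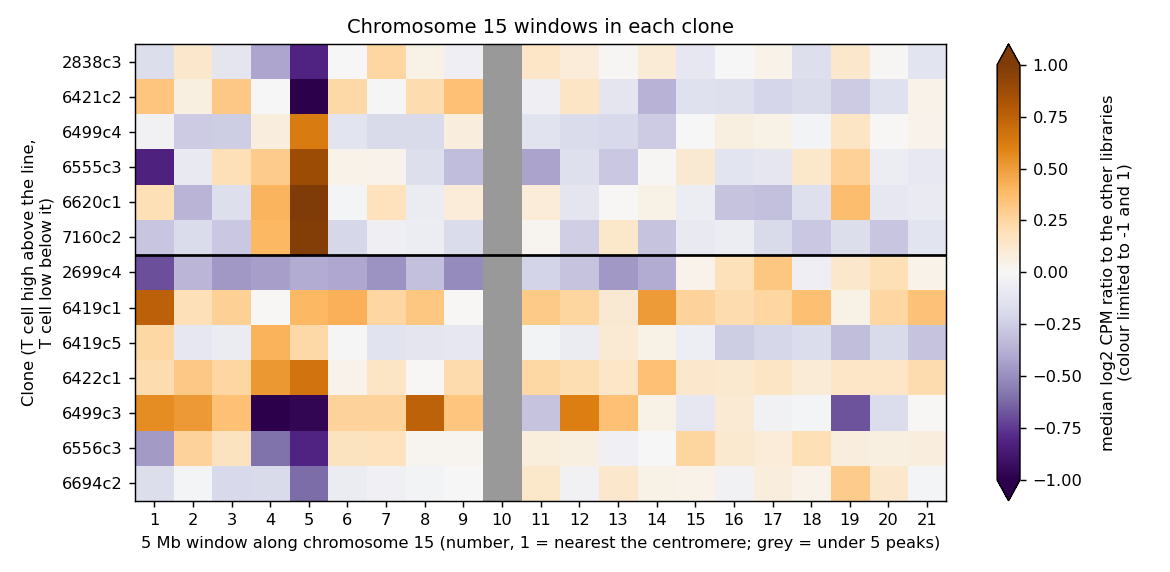
Median log2 CPM ratio to the other libraries in each 5 Mb window of chromosome 15 (columns, numbered from the centromere) for each clone (rows), with T cell high clones above the line, T cell low clones below it and the unused window in grey. 2699c4 is lower in 9 adjacent windows from the first, 6419c1 is above 0 in every used window, and the widest spread between clones is in window 5.

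2699c4, a T cell low clone, had the longest continuous shift. All 9 windows from 0 to 45 Mb were lower than in the other libraries, with window medians of -0.69 to -0.31, and the 471 peaks of this run had a median ratio of -0.40 with 368 of them (78.1%) below 0. The windows at 50 to 55 Mb and 55 to 60 Mb stood at -0.23 and -0.30, neither past the threshold before rounding. A second run covered 60 to 70 Mb, with 101 peaks and a median of -0.43. From 70 Mb onward no window was lower by 0.3 or more, and 80 to 85 Mb was higher at 0.32. 2699c4 was the lowest of the 13 clones in 8 of the 20 windows, all of them below 70 Mb.

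The largest change of level in 2699c4 lay at 70 Mb, a boundary chosen after its profile was seen, and its place depended on the centring. Below it 598 of 790 peaks (75.7%) had a ratio under 0 and the median was -0.36, and at or above it 345 of 862 (40.0%) did and the median was 0.13, a step of 0.49. Among 1 Mb bins of 5 or more peaks the last one below was 68 to 69 Mb at -0.51 and the first bin above was 72 to 73 Mb at 0.17, each with 8 peaks. The step was present in both classes of peaks. Gene-end peaks stood at -0.31 below and 0.30 above 70 Mb (a step of 0.61), and the other peaks at -0.37 and -0.01 (a step of 0.36). The gene-end peaks were near 0 at 35 to 40 Mb (-0.01) and 55 to 60 Mb (-0.08), with 24 peaks in each window. After centring, which subtracted the median of autosomal peaks of the same class and level outside chromosome 15, the step at 70 Mb was 0.42, and the largest step of the chromosome was 0.47 with its edge at 25 Mb. No other clone had a step of this size upward. The T cell high clones ranged from -0.27 in 6421c2 to 0.19 in 6499c4, and the other T cell low clones from -0.41 in 6499c3 to 0.07 in 6694c2. It was not the largest step of 2699c4 itself, since chromosome 15 ranked 4th of its 19 autosomes and chromosome 17 had the largest, 0.57.

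The listed genes show what these ratios look like in counts. The 93 listed genes fall in 7 lists (receptors, adhesion, signalling, transcription, WNT and hedgehog ligands, keratins, metabolism), and 62 had a member gene-end peak, 23 below and 39 at or above 70 Mb. In 2699c4, 20 of the 23 below 70 Mb had a ratio under 0, 11 were at -0.3 or lower and 0 at 0.3 or higher (median -0.29), and 5 were the lowest of all clones. At or above 70 Mb 24 of 39 were at 0.3 or higher, 6 at -0.3 or lower (median 0.38), and 16 were the highest of all clones. Over all gene-end members, 71 of 138 below 70 Mb (51.4%) were at -0.3 or lower in 2699c4, beside a background of 17.4% of its gene-end peaks on other autosomes. At or above 70 Mb 157 of 314 were at 0.3 or higher, beside a background of 39.1%. These backgrounds, 17.4% lower and 39.1% higher, also stand beside the counts of 2699c4 per list below. For genes that were the lowest or highest of all clones, no share over all gene-end peaks is given here.

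Receptor genes lay mostly in the lower stretch. Ptger4, the E-prostanoid receptor 4 for prostaglandin E2 (peak chr15:5243833-5244984), gave 34.8 CPM in 2699c4, against 41.0 to 105 CPM (median 69.1) in the other clones. It was the lowest value of the 13, and its ratio was -0.98. Osmr, a subunit of the oncostatin M receptor, gave 20.5 CPM in 2699c4, inside the range of 14.9 to 54.6 CPM of the other clones (median 29.4). Ghr, the growth hormone receptor, gave 30.3 CPM in 2699c4, against 23.2 to 85.5 CPM (median 41.5). Tnfrsf11b, the decoy receptor osteoprotegerin, gave 2.78 CPM in 2699c4, below the range of 6.88 to 21.5 CPM in the other clones (median 16.3). Its ratio of -2.29 was much further from 0 than that of its window, 50 to 55 Mb, at -0.23, but it rests on few counts at 2.78 CPM. Of the 5 receptor genes with a member peak, 4 were at -0.3 or lower in 2699c4, and Acvr1b, an activin receptor gene above 70 Mb, was at 0.57.

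Of the 14 growth and signalling genes with a member peak, 4 were at -0.3 or lower in 2699c4 and 4 at 0.3 or higher. Trio, a guanine nucleotide exchange factor whose promoter is printed above, gave 96.1 CPM in 2699c4, against 97.7 to 229 CPM (median 129) in the other clones. Asap1, a GTPase-activating protein for Arf, gave 31.3 CPM in 2699c4, against 38.3 to 79.1 CPM (median 55.6). Both were the lowest of the 13 clones. Rictor, the defining subunit of mTOR complex 2, gave 55.7 CPM in 2699c4, inside the 42.3 to 102 CPM of the other clones (median 65.6). Above the boundary, Ptk2, which encodes focal adhesion kinase, gave 85.3 CPM in 2699c4, against 40.1 to 76.5 CPM (median 55.6), and Ago2, the slicer Argonaute of RNA interference, gave 79.7 CPM, against 38.2 to 69.7 CPM (median 52.9). Both were the highest of the 13 clones.

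Several transcription and metabolism genes above 70 Mb had their highest value of all clones in 2699c4. Atf4, the transcription factor of the integrated stress response (peak chr15:80254753-80256171), gave 122 CPM in 2699c4, against 34.6 to 86.5 CPM (median 59.5) in the other clones. Srebf2, a regulator of cholesterol synthesis genes, gave 94.3 CPM, against 35.5 to 75.4 CPM (median 54.7). Slc38a2, an amino acid transporter gene, gave 149 CPM, against 49.9 to 115 CPM (median 92.6), and Rbx1, a RING subunit of cullin ubiquitin ligases, gave 101 CPM, against 27.5 to 88.5 CPM (median 58.6). All 4 lay above every other clone. Of the 14 transcription and chromatin genes with a member peak, 8 were at 0.3 or higher in 2699c4 and 2 at -0.3 or lower. Of the 16 metabolism and housekeeping genes 9 were higher and 2 lower. The background on other autosomes was 39.1% of its gene-end peaks higher and 17.4% lower.

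Genes did not all follow the level of their stretch. Of the 5 keratin genes with a member peak 2 were at -0.3 or lower in 2699c4 and 0 at 0.3 or higher, of the 5 cadherin, semaphorin and adhesion genes 2 and 1, and of the 3 WNT and hedgehog ligand genes 1 and 1. In the keratin cluster, in the 100 to 105 Mb window, which stood at 0.05 in 2699c4, Krt7 gave 11.8 CPM, against 4.50 to 32.7 CPM (median 20.1), and Krt18 gave 10.4 CPM, against 6.60 to 19.1 CPM (median 15.9). Krt8, the partner of Krt18 in simple epithelia, gave 27.8 CPM, against 7.47 to 35.5 CPM (median 28.3). Wnt7b, a WNT ligand gene, was at -0.93 and Pdgfb, a growth factor gene, at -0.44 although both lie above 70 Mb. Below 70 Mb, Sqle, the squalene epoxidase of sterol synthesis, was at 0.20, and Trib1, a pseudokinase gene, at 0.06.

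**Figure D3:**
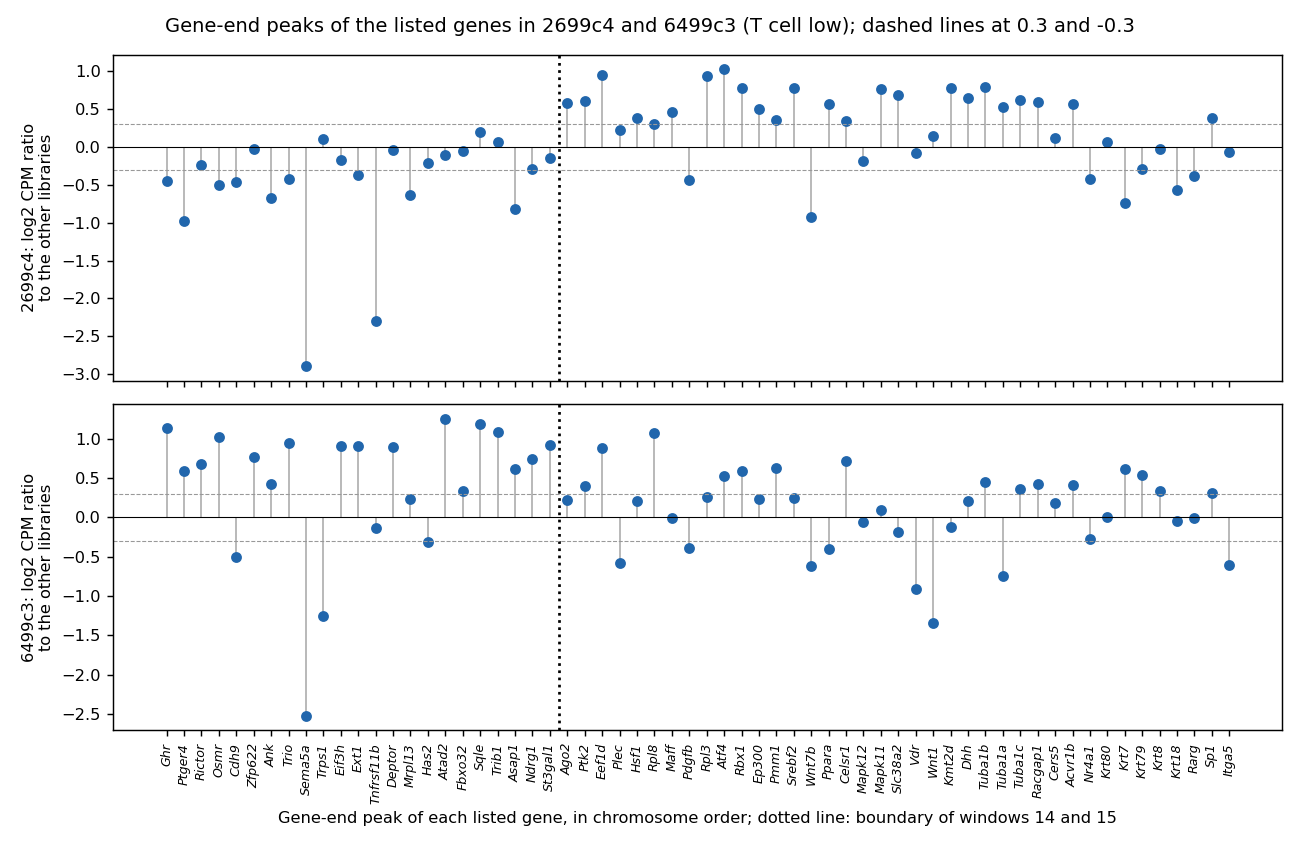
Log2 CPM ratio to the other libraries (vertical axes) of the gene-end peak of each of the 62 listed genes, in chromosome order, in the T cell low clones 2699c4 (upper) and 6499c3 (lower); the dotted line marks 70 Mb and the dashed lines 0.3 and -0.3. Points in 2699c4 lie mostly below 0 left of the dotted line (20 of 23) and above 0 right of it, and in 6499c3 17 of the 23 points on the left are at 0.3 or higher.

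6499c3, also T cell low, had a profile of the opposite slope and much more uneven windows. Its median was 0.37 below 70 Mb and -0.04 at or above it, a step of -0.41 (-0.50 after centring by peak class and level). Runs of higher windows covered 0 to 15 Mb (145 peaks, median 0.47), 35 to 45 Mb (162 peaks, median 0.61) and 55 to 65 Mb (170 peaks, median 0.52). Lower windows lay between them at 15 to 25 Mb, where all 19 peaks were below 0 (median -0.97), and the 90 to 95 Mb window was at -0.68. Its highest window was 35 to 40 Mb, at 0.75, and its lowest 15 to 20 Mb, at -1.02. The shift differed by peak class. Below 70 Mb gene-end peaks stood at 0.71 and the other peaks at 0.27, and at or above 70 Mb gene-end peaks stood at 0.15 and the other peaks at -0.19. This clone had higher gene-end peaks on all autosomes together, with a median of 0.28 beside -0.11 for the other peaks, so the peak class moves with the result, and its part beyond that centring was not tested.

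Steps of this size were common elsewhere in 6499c3. The largest step of each other autosome in this clone had a median size of 0.40, and chromosome 15 ranked 10th of 19 with its best edge, -0.44 at 65 Mb (6th of 19 after centring by class and level). Of the gene-end members below 70 Mb, 116 of 138 (84.1%) were at 0.3 or higher, beside a background of 48.4% of its gene-end peaks on other autosomes, and at or above 70 Mb 103 of 314 (32.8%) were. Among listed genes 17 of 23 below 70 Mb were at 0.3 or higher (median 0.74), and 13 were the highest of all clones. Trib1 gave 254 CPM in 6499c3, against 71.1 to 149 CPM (median 119) in the other clones, and Trio gave 229 CPM, against 96.1 to 167 CPM (median 119). Atad2, a bromodomain ATPase gene, gave 140 CPM, against 29.4 to 79.8 CPM (median 58.4), and Sqle gave 132 CPM, against 31.9 to 66.5 CPM (median 57.7). Each lay above the whole range of the other 12 clones. Sema5a, a semaphorin of axon guidance, went the other way at 4.69 CPM in 6499c3, against 0.53 to 70.1 CPM (median 30.1), and Trps1, a GATA-type repressor gene, gave 8.04 CPM, against 9.97 to 50.9 CPM (median 20.1).

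**Figure D4:**
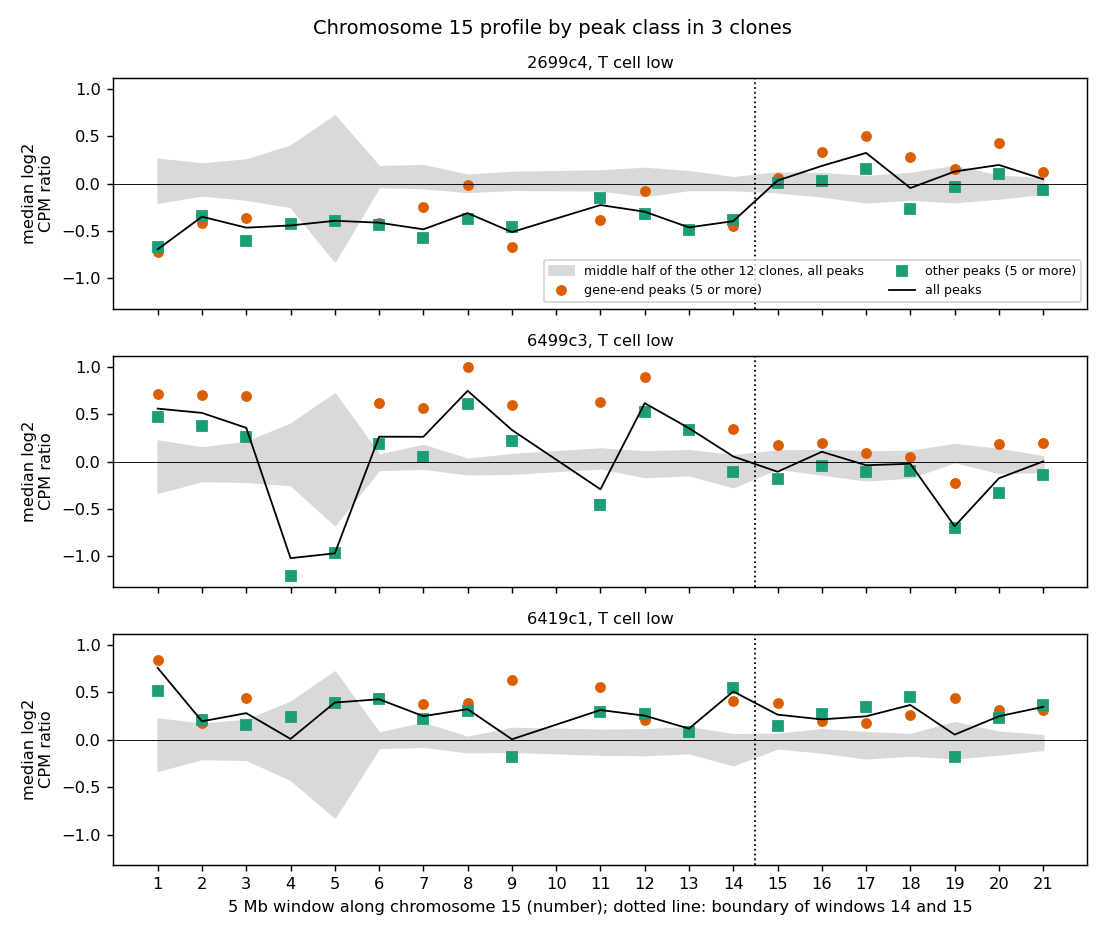
Median log2 CPM ratio to the other libraries (vertical axes) by 5 Mb window of chromosome 15 in 2699c4, 6499c3 and 6419c1, with gene-end peaks as circles, other peaks as squares, all peaks as a line and the middle quartiles of the other clones' windows in grey; the dotted line marks 70 Mb. In 2699c4 the other peaks lie low to the left of the line, and gene-end peaks do so in most windows. Its gene-end peaks are near 0 at 35 to 40 Mb (-0.01) and 55 to 60 Mb (-0.08). Gene-end peaks lie above the other peaks in most windows of 6499c3, and in 6419c1 the level is 0.28 left and 0.27 right of the line.

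6419c1 differed from both in being higher along most of the chromosome, with the 15 to 20, 40 to 45 and 90 to 95 Mb windows near 0 (0.007, 0.004 and 0.05). None of its 20 windows was below 0, the lowest being 40 to 45 Mb at 0.004 and the highest 0 to 5 Mb at 0.76, and 8 windows were higher by 0.3 or more beside a background of 9.98% of its windows on other autosomes. Its median was 0.28 below and 0.27 at or above 70 Mb. Gene-end peaks (0.29) and other peaks (0.26) had similar levels, and 452 of the 1652 peaks (27.4%) had a ratio under 0. It was the highest of the 13 clones in 9 of the 20 windows. The only run past the threshold covered 20 to 30 Mb, with 90 peaks and a median of 0.42. Of the gene-end members 220 of 452 (48.7%) were at 0.3 or higher, beside a background of 27.1% on other autosomes. Asap1 gave 79.1 CPM in 6419c1, against 31.3 to 76.7 CPM in the other clones (median 50.2), and Ank, a membrane protein gene that controls pyrophosphate, gave 78.4 CPM, against 25.9 to 59.0 CPM (median 40.7). Both were the highest of the 13 clones. Sp1, the transcription factor gene whose promoter is printed above, gave 221 CPM, against 112 to 209 CPM (median 161), also the highest of the 13. Ppara, the fatty acid sensing nuclear receptor gene, was the opposite case at 8.85 CPM, the lowest of the 13 clones, against a median of 30.6 CPM and at most 54.1 CPM in the other clones.

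There were 2 pairs of clones sharing the number before the letter c, which the labels do not explain. 6419c1 and 6419c5, both T cell low, stood at 0.27 and -0.13 over the chromosome, and 6419c1 was higher by a median of 0.38 over the windows. The correlation of their profiles (r) was 0.20 over 20 windows, and 0.56 over 18 once 15 to 25 Mb was left out (4th of 78 pairs). The sparse 0 to 5 Mb window, with 14 peaks, was the highest of the 18 in both clones (0.76 and 0.23). The coefficient without that window was not computed, so how far the 0.56 rests on it was not tested. 6499c4, T cell high, and 6499c3, T cell low, ran against each other (r = -0.59 over 18 windows, 72nd of 78; -0.71 over 20). The windows of a clone share its library and its depth, and the ratio of each clone is taken to a median that holds the other, so these coefficients are descriptions only.

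The remaining clones had few or no runs. 6422c1, T cell low, was above 0 in all 20 windows, like 6419c1 but at a lower level, from 0.01 at 35 to 40 Mb to 0.66 at 20 to 25 Mb. The 15 to 25 Mb stretch gave the only run in 6 clones besides 6499c3. Among T cell high clones it was higher in 6555c3 (median 0.65), 6620c1 (0.61) and 7160c2 (0.56) and lower in 2838c3 (-0.66). Among T cell low clones it was higher in 6422c1 (0.61) and lower in 6556c3 (-0.77). Both groups thus had clones on either side of 0, and the 20 to 25 Mb window of 6421c2, with 7 peaks, had the lowest value of any clone window, -1.69. Outside this stretch, among T cell high clones, the windows of 2838c3 ran from -0.17 to 0.25, 6421c2 from -0.36 to 0.35, 6499c4 from -0.26 to 0.15, 6555c3 from -0.82 to 0.27, 6620c1 from -0.36 to 0.37 and 7160c2 from -0.29 to 0.14. Among T cell low clones 6419c5 ran from -0.32 to 0.23, 6556c3 from -0.46 to 0.26 and 6694c2 from -0.20 to 0.30.

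The comparison of T cell high with T cell low clones asks whether dosage along the chromosome moved with the T cell content of the tumours. No window was called. limma on the window medians of all autosomes called 1 of 491 windows at an adjusted p under 0.05 (Benjamini-Hochberg), a background of 0.204%, and 40 at an unadjusted p under 0.05 (8.15%). On chromosome 15 it called 0 of 20, with 0 at an unadjusted p under 0.05 and a smallest adjusted p of 0.628. The mean was lower in T cell high clones in 16 of the 20 windows, with a median difference of -0.12. The groups overlapped in all 20. The windows of a clone share its library, so these counts are descriptions only. Their shares over all autosomal windows are not given here. The window at 80 to 85 Mb had the smallest p. It ranged from -0.31 to 0.05 in T cell high clones (median -0.15) and from -0.21 to 0.32 in T cell low clones (median 0.09), and the means were -0.12 ± 0.14 (SD, n = 6) and 0.09 ± 0.18 (SD, n = 7), a difference of -0.21 (SE 0.12, limma adjusted p = 0.628). The largest difference, 0.41 at 20 to 25 Mb, had an SE of 0.39 and rests on 7 peaks.

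**Figure D5:**
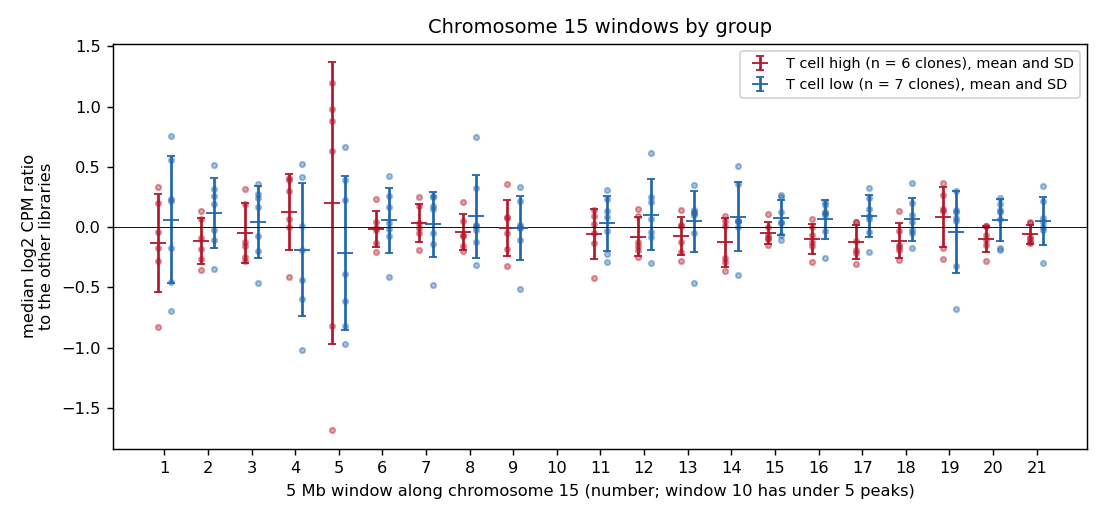
Median log2 CPM ratio to the other libraries (vertical axis) by 5 Mb window of chromosome 15, with each clone as a point and the mean and SD of the 6 T cell high clones (left in each pair) and the 7 T cell low clones (right). The groups overlap in all 20 windows, and the T cell high mean is the lower one in 16 of them. The windows share the same libraries, and no shares over all autosomal windows are given.

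Single peaks gave the same picture with edgeR's quasi-likelihood test and Benjamini-Hochberg adjustment over all tested peaks. It called 0 of 59252 peaks, a background of 0%, with 4046 at an unadjusted p under 0.05 (6.83%), and 0 of the 1651 members it tested (1 member did not pass the count filter). Among members 71 were lower in T cell high clones at an unadjusted p under 0.05 (4.30%) and 28 higher (1.70%), beside a background of 2.96% lower and 3.86% higher over all peaks. The fold change was below 0 for 1132 members (68.6%) beside a background of 48.7%. The median log2 fold change was -0.15 beside 0.01 over all peaks. The backgrounds of 2.96%, 3.86% and 48.7% were not limited to the count minimum of the members. No shares over other autosomal peaks past that minimum are given here. The share below 0 also differed by peak class, at 59.3% of all gene-end peaks tested. Whether the differences from these backgrounds are particular to the members was therefore not tested. With each library's 5 Mb window median as an offset, 833 members were below 0 and the median was -0.004. DESeq2 called 47 of 59227 peaks (0.0794%), 3 of them members. Leaving out 2838c3, edgeR called 42 peaks, of which 3 were members, and leaving out any other library it called 0 members.

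The members DESeq2 called lie in 2 genes, named here after their values were seen. A peak within Sema5a (chr15:32401821-32402841) gave 23.0 to 54.2 CPM (median 39.2) in T cell high clones and 3.69 to 24.3 CPM (median 7.66) in T cell low clones, averaging 37.3 ± 11.4 CPM (SD, n = 6) in the T cell high group and 11.3 ± 7.91 CPM (SD, n = 7) in the T cell low group. Only 2838c3 among T cell high clones was inside the T cell low range, and the log2 fold change was 1.81 (SE 0.36, edgeR adjusted p = 0.272, DESeq2 adjusted p = 0.00582). A second peak within Sema5a (chr15:32333369-32333809) ranged from 3.99 to 15.9 CPM (median 14.4) in T cell high clones and from 0 to 3.83 CPM (median 1.87) in T cell low clones. The groups did not overlap, but the gap was narrow and at low counts. It lay between 3.99 CPM in 7160c2, the library with the fewest counts, and 3.83 CPM in 2699c4. No share of peaks without overlap over the whole table is given here. This second peak averaged 11.4 ± 5.60 CPM in T cell high clones and 1.86 ± 1.57 CPM in T cell low clones (SD, n = 6 and 7). Its log2 fold change was 2.65 (edgeR adjusted p = 0.342, DESeq2 adjusted p = 0.0146). The third lies within Kif21a, a kinesin gene (chr15:90991721-90993108), where T cell high clones averaged 7.79 ± 3.11 CPM (SD, n = 6) and T cell low clones 24.0 ± 9.77 CPM (SD, n = 7). The T cell high clones ranged from 3.73 to 11.1 CPM (median 8.62) and the T cell low clones from 9.9 to 37.6 CPM (median 24.8), so the groups overlapped. Its log2 fold change was -1.60 (edgeR adjusted p = 0.347, DESeq2 adjusted p = 0.0146). Without 2838c3 the edgeR calls were the first of these Sema5a peaks, another within Sema5a (chr15:32531586-32532640) and one outside any protein-coding gene record (chr15:49664742-49665692), with edgeR adjusted p = 0.0454, 0.0157 and 0.0409. Of the 62 listed gene-end peaks 0 were called by edgeR, and 2 had an unadjusted p under 0.05 (3.23%, beside a background of 5.14% of all gene-end peaks tested). Of the same 62 peaks 50 had a fold change below 0 (80.6%, beside a background of 59.3%). These 2 backgrounds were not limited to the count minimum of the members.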

How the data were processed

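The deposited values were raw read counts per merged peak in 13 libraries, made by the authors with featureCounts 1.5.3 per the file headers; mm10 and DESeq2 are named in the submitters' processing notes, and for the aligner and peak caller no name is given in the sources used here. The 2 intermediate samples were not analysed here. Depth was 968296 to 7369228 counts per library, which limits precision by counting error, and a clone's window rested on at least 67 counts. Numbers of replicates were given in accession order and do not pair libraries. Where nothing in the labels says that libraries of a group are separate animals, p-values measure only the spread between these libraries.

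Counts were scaled with edgeR's TMM factors and turned into log2 CPM with a prior count of 2, and each clone's ratio was taken to the median of the other libraries. Peaks within 1 kb of an end of a protein-coding RefSeq gene record (GRCm38.p6) were called gene-end peaks. Windows were 5 Mb wide with at least 5 peaks, and the threshold was 0.3. The groups were compared with edgeR 4.0.16 (quasi-likelihood, filterByExpr) on peaks and limma 3.58.1 on windows, both adjusted by Benjamini-Hochberg over all features, with DESeq2 1.42.0 as an alternative (R 4.3.3). The scripts were tested on simulated data. Named were, per clone, its highest and lowest window, every run of 2 or more adjacent windows past the threshold, and listed genes with a member peak in the stretch described. Of 93 listed genes, 62 had one, 28 had no gene-end peak, 2 (Itgb7 and Khdrbs3) had one under the count minimum and 1 (Itga7) lies on another chromosome. The members and lists were chosen with earlier results of these data known. Alternatives covered scaling, centring, filters, window size, threshold, peak class and each library left out.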

Additional observations from a re-analysis of the deposited data

Results flagged for a closer look

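The peaks between 61 and 64 Mb, which were left out of the profile, stood apart in 2699c4, where their counts were far above those of every other library. In a block of 60 peaks (chr15:61875029-62514574) the median log2 CPM ratio of 2699c4 to the other libraries was 5.10, and the medians of the other 12 libraries lay between -0.65 and 0.52. The block held 2.04% of all counts of 2699c4 and at most 0.085% in any other library. Myc is the protein-coding gene record that overlaps it. The other 26 peaks of 61 to 64 Mb with a mean count of 20 or more had a median ratio of -0.47 in 2699c4, near the -0.43 of its run from 60 to 70 Mb. Among 44 sets of 6 or 7 clones examined for a clone far from its group (the chromosome median, the step at 70 Mb and the 20 windows, in each group), 0 had one by Dixon's criterion, where chance gives about 1 in 20.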

How the results depend on the processing

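The number of shifted clone windows, 61 of 260, depended on its definition. It was 154 of 572 with 2 Mb windows (26.9%, beside 30.1% on other autosomes), 17 of 143 with 10 Mb windows (11.9%, beside 19.9%), 106 at a threshold of 0.2 (40.8%, beside 43.2%), 23 at 0.5 (8.85%, beside 6.40%), and 34 of 221 with at least 20 peaks in each window, an alternative chosen after seeing the data. The share lay on either side of the background over the alternatives. It was 44 to 62 when 1 library was left out. The difference between T cell high and T cell low chromosome medians stayed within -0.18 to -0.11 under 12 alternatives and -0.16 to -0.10 without 1 library, and the SD over clones within 0.124 to 0.177 and 0.103 to 0.139. limma called 0 chromosome 15 windows in all 27 alternatives. edgeR called 0 to 3 members when 1 library was left out, the 3 only without 2838c3, and DESeq2 called 3; 0 were called with DESeq2 size factors, without the count filter and with window offsets. The step of 2699c4 ranged from 0.36 (peaks away from gene ends) to 0.61 (gene-end peaks) and from 0.46 to 0.52 without 1 library. Of 299 clone medians under alternatives, 283 moved by less than the SD of their group, and the median of 2699c4 was 0.13 over gene-end peaks. No paired analysis was possible because the replicate numbers come from accession order. Copy number and accessibility cannot be told apart in these counts. Each clone had 1 library, and the 15 to 25 Mb windows rest on 67 to 2004 counts.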
